A study of Mus musculus with 8 samples.

Results

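Of the 20926 genes in the expression table, 49 are imprinted genes that lie outside the *Dlk1*-*Dio3* cluster. They were listed by name with earlier results of these data known, and the rule that picked their rows used only presence in the table. Every gene in that table had 10 or more estimated reads in some library. The 49 genes fall into 23 imprinted loci on 11 chromosomes, 20 of them on chromosome 7, and 45 are protein coding. RNA was measured in the mesenchyme of molars from mice at postnatal (PN) day 3, after removal of the epithelium per the labels, in 4 control libraries (*Ezh2* fl/fl) and 4 *Osr2-Cre;Ezh2* fl/fl libraries, called *Osr2KI-Cre;Ezh2fl/fl* in the sample labels. The labels give the strain of all libraries as C57BL/6, while the study's methods give a mixed background. Both groups carried the floxed *Ezh2* alleles. Only the mutant group carried Cre, knocked in at *Osr2*, a gene of the dental mesenchyme, which limits the deletion of *Ezh2* to cells that have expressed *Osr2*. Ezh2 is the enzyme of the polycomb repressive complex PRC2 that trimethylates lysine 27 of histone H3 (H3K27me3), and the comparison asks which transcripts differ in the molar mesenchyme without it.

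An imprinted gene is transcribed mainly from the chromosome inherited from 1 parent. At most loci the 2 parental copies are marked by DNA methylation laid down in egg or sperm, and the zinc finger protein ZFP57 keeps that methylation in the early embryo. PRC2 also takes part at some of these loci: the long noncoding RNAs *Kcnq1ot1* and *Airn* recruit it to the silenced copy of their neighbours, at *Zdbf2* it represses the copy that lacks methylation, and in a group that includes *Slc38a4*, *Sfmbt2* and *Gab1* the maternal copy carries H3K27me3 from the egg in place of DNA methylation. Of the 49 genes, 27 are known to be expressed from the paternal copy, 21 from the maternal copy, and *Gnas* from either copy by promoter. Many paternally expressed genes promote fetal growth and several maternally expressed genes restrain it. The deposited values give 1 number per gene and do not separate the parental copies, so each value is the sum of both.

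To show what lies in front of the 4 genes that rose in mutant molars, the 250 bases before their RefSeq start are given for build GRCm38.p6, 5′ to 3′ on the strand of the gene. Capitals mark TGCCGC, the letters that ZFP57 binds, or GCGGCA, the same letters on the other strand. *Zdbf2* is shown at the start nearest to that in the table (chr1:63273019-63273268, plus strand) and at a second RefSeq start 72907 bases upstream (chr1:63200108-63200357, plus strand). *Slc38a4* is shown at chr15:97055957-97056206 (minus strand), *Nnat* at chr2:157559828-157560077 (plus strand) and *Plagl1* at chr10:13090582-13090831 (plus strand), which is 30328 bases from its start in the table.
Zdbf2: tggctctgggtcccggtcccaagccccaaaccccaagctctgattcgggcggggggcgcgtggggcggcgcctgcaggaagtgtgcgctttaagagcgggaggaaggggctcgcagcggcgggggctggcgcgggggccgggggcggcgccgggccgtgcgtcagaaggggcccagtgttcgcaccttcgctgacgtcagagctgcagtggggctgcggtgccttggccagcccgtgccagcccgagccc
Zdbf2 upstream start: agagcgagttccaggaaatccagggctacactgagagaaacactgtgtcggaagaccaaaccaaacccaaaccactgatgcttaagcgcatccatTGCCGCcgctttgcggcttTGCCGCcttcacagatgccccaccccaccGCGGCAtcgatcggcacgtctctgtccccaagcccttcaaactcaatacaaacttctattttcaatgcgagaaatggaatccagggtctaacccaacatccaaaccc
Slc38a4: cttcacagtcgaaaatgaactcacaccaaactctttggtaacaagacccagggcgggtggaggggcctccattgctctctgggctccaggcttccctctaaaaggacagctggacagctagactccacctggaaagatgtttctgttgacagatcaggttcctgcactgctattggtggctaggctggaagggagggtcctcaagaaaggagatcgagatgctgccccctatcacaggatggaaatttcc
Nnat: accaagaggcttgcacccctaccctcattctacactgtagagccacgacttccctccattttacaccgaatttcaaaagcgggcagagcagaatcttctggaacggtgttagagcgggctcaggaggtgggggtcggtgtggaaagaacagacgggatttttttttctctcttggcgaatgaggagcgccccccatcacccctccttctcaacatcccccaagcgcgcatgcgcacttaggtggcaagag
Plagl1: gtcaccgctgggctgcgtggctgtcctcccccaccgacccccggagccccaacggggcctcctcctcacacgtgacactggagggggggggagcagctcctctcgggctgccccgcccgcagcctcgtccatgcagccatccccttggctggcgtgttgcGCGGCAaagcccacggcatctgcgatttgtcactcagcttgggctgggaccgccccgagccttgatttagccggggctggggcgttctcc
The window of *Zdbf2* at its nearest start held 26 CpG dinucleotides and none of the ZFP57 letters, while the upstream window held 13 CpGs and 3 copies of the letters. The *Plagl1* window held 19 CpGs and 1 copy, the *Nnat* window 12 CpGs and none, and the *Slc38a4* window, at its start in the table, 3 CpGs and none. Windows of the other 2 RefSeq starts of *Slc38a4*, which lie inside the gene, held 5 CpGs each and none of the letters. RefSeq windows were matched for 40 of the 49 genes, with 60 windows in all. TGCCGC on either strand was found in 8 of the 60 windows, or 13.3%, from 7 genes (*Mcts2*, *Copg2*, *Mest*, *Nap1l5*, *Zim1*, *Plagl1* and *Zdbf2*), against 8.68% of all 32817 windows. Of these 8 windows, 2 belong to *Mest* starts that lie 3 bases apart and hold the same copies of the letters. GGGGCCCC, the palindrome bound by the zinc finger protein PLAGL1, was found in 3 windows (*Ppp1r9a*, *Peg3* and *Rasgrf1*), against 0.884% of all windows, and the median number of CpGs was 12 against 6. A match of letters is a description of these windows and not a binding site.

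The values are a normalized signal that the authors scaled to a common upper quartile in each library, without division by gene length. The 8 libraries held 48313058 to 68793561 estimated reads. *Ezh2* itself stood at 55.0, 38.3, 39.6 and 39.0 in the 4 control libraries and at 35.2, 30.1, 23.2 and 36.0 in the mutants, lower in every mutant library than in any control (limma log2 fold change -0.46, adjusted p = 0.235). A single value per gene does not separate the deleted exons from the rest, which makes it a limited check of the labels. Mesenchyme markers were high in all libraries, with *Vim*, *Pdgfra*, *Msx1*, *Col1a1* and *Col1a2* summing to 10090 to 15562. Epithelial transcripts remained in spite of the dissection, and all 7 ameloblast and epithelium markers were in the table. Their sum ran from 2220 to 31754 in controls and from 2202 to 13320 in mutants, and in control libraries 3 and 4 and mutant library 3 it was above the mesenchyme sum of the same library. The 3 endothelial markers summed to 264 to 294 in controls and 225 to 249 in mutants and the 3 odontoblast markers to 1524 to 3013 and 671 to 2466, and in such bulk tissue fewer cells of a type and less RNA per cell cannot be told apart. Sums of muscle markers, of which 4 of 5 had values here, ran from 4.46 to 34.9 in controls and from 0.67 to 7.62 in mutants, of macrophage markers from 59.7 to 105 and from 79.6 to 84.9, and of red cell markers from 196 to 309 and from 235 to 484. Values with ameloblast genes as a covariate, or without the 3 libraries rich in enamel transcripts, are given beside the genes called, and the part of the other cell types in the results was not tested.

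Of the 49 genes, 44 reached a value of 1 in at least 4 libraries and were tested among 14854 genes. *Slc38a4*, *Zdbf2*, *Plagl1* and *Nnat* rose in *Osr2-Cre;Ezh2* fl/fl molars at an adjusted p under 0.05 (limma, Benjamini-Hochberg over all genes tested), and none fell. These 4 are 9.09% of the 44, where 1.56% of all genes tested were called higher and 0.512% lower. All 4 are known as paternally expressed genes. Mutant values lay above every control value for 6 genes (the 4 called, *Zim1* and *Sgce*), where 5.76% of all genes tested did so. They lay below every control value for *Copg2*, where 2.77% of all genes did so. At an unadjusted p under 0.05, 11 genes, or 25.0%, were higher, against 8.27% of all genes, and *Snrpn* was lower, against 4.87%. The log2 fold change was above 0 for 32 of the 44 genes (54.1% of all genes tested) and its median was 0.10, against 0.01 over all genes. With median-of-ratios scaling 29 of 44 were above 0 (44.7% of all genes), and with quantile normalization 30 (49.1% of all genes). With array weights, which give less weight to libraries far from the fit, 19 of the 44 were called, in a fit that called 4040 of all genes.

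**Figure D1:**
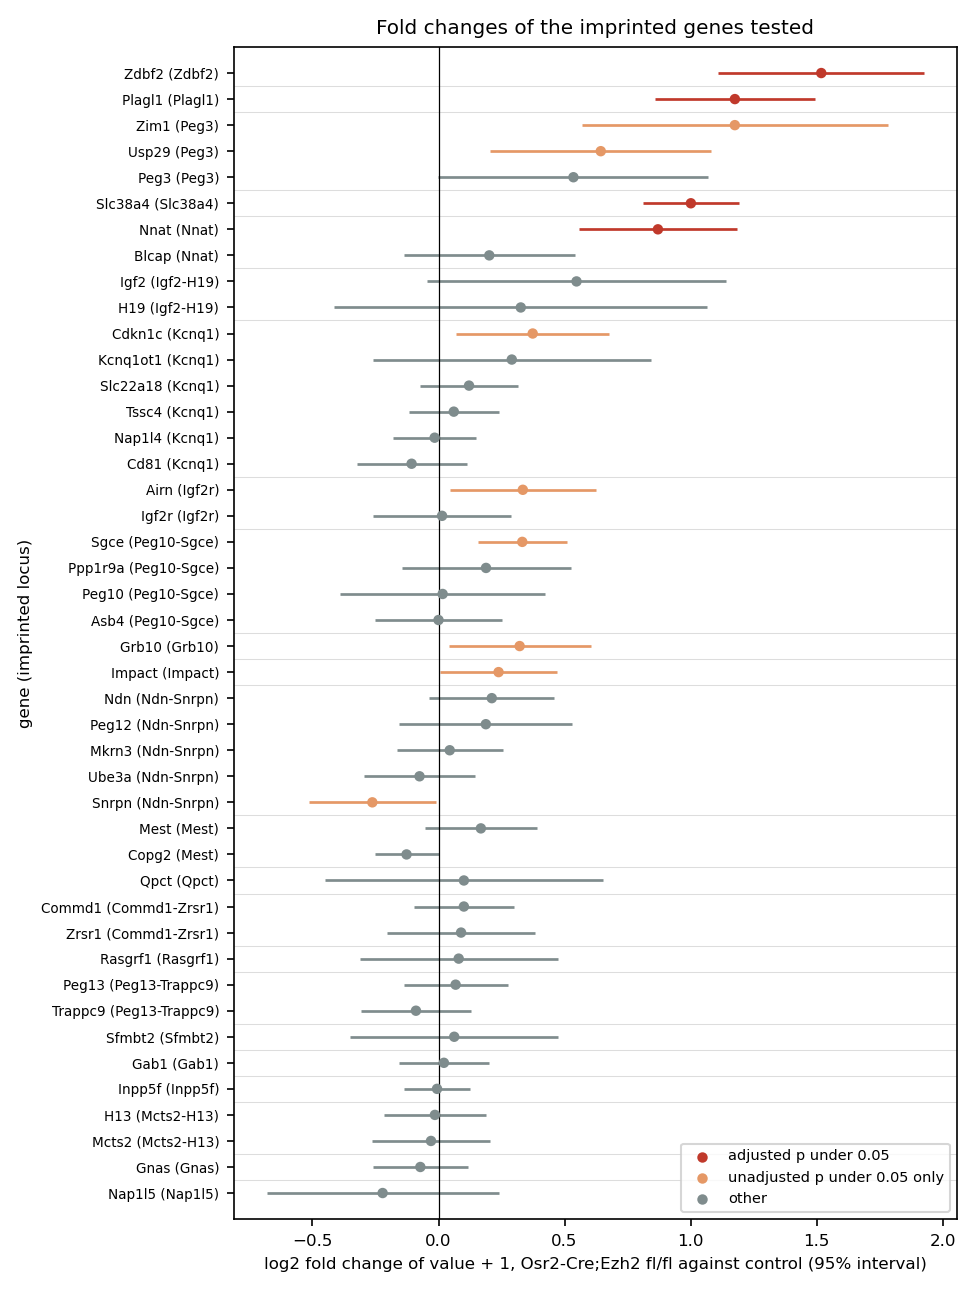
Log2 fold change on the log2(value + 1) scale of the 44 imprinted genes tested, *Osr2-Cre;Ezh2* fl/fl against control (4 libraries each), with 95% intervals from limma, grouped by locus and ordered by the largest fold change in each locus. The 4 genes called at an adjusted p under 0.05 lie between 0.87 and 1.52, and 25 of the 44 lie within 0.2 of 0.

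*Slc38a4*, also called SNAT4, encodes a transporter of neutral and cationic amino acids and is a growth gene of the placenta. It spans chr15:96994820-97055956 on the minus strand (GRCm38). It stood at 16.5, 18.1, 14.7 and 15.8 in controls 1 to 4 and at 30.4, 34.9, 34.8 and 34.0 in mutants 1 to 4. The groups were far apart, with all mutant libraries within a narrow range. The mean was 16.3 ± 1.40 in controls and 33.5 ± 2.11 in mutants (SD, n = 4 each), 2.06 times as much. The log2 fold change was 1.00 with a standard error (SE) of 0.08 and a 95% interval of 0.81 to 1.19 (limma adjusted p = 0.000821). The 2 other genes with maternal H3K27me3 imprints did not pass the test. *Sfmbt2*, a polycomb-related protein, averaged 3.32 ± 0.653 in controls and 3.57 ± 1.19 in mutants, with a log2 fold change of 0.06 (95% interval -0.35 to 0.48). *Gab1*, an adaptor of growth factor receptors, averaged 64.3 ± 0.556 and 65.6 ± 7.17, with a log2 fold change of 0.02 (95% interval -0.16 to 0.20). The interval for *Gab1* leaves out a change of the size seen for *Slc38a4*, and so does that for *Sfmbt2*. Imprinting of *Sfmbt2* and *Gab1* is listed here for placenta only, and whether either gene is imprinted in the molar was not tested.

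*Zdbf2* encodes a zinc finger protein that is expressed in the brain and pituitary and is linked to feeding and growth of the newborn. It spans chr1:63273265-63314576 on the plus strand. Control libraries stood at 6.76, 5.73, 5.38 and 4.14 and mutant libraries at 12.6, 22.5, 16.6 and 19.6. The lowest mutant library was well above the highest control. The mean was 5.50 ± 1.08 in controls and 17.8 ± 4.24 in mutants, 3.23 times as much and the largest ratio among the 44 genes tested. The log2 fold change was 1.52 with an SE of 0.18 (95% interval 1.11 to 1.93, limma adjusted p = 0.00463). Between 270 and 426 estimated reads per control library and between 662 and 1517 per mutant library lie behind these values.

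*Plagl1*, also called Zac1, encodes the zinc finger transcription factor whose palindrome was searched above, which slows the cell cycle and binds at other imprinted genes. It spans chr10:13060504-13131694 on the plus strand. Control libraries stood at 199, 183, 146 and 157 and mutant libraries at 297, 438, 387 and 433. No mutant value came near the control range, and mutant library 1 was the lowest of its group. The mean was 171 ± 24.3 in controls and 389 ± 65.1 in mutants, 2.27 times as much. The log2 fold change was 1.18 with an SE of 0.14 (95% interval 0.86 to 1.49, limma adjusted p = 0.00463).

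*Nnat* encodes neuronatin, a small membrane protein of developing nerve and fat tissue. It lies at chr2:157560078-157562522 on the plus strand, inside an intron of *Blcap* on the opposite strand, and it is not stated whether the reads were counted by strand. Control libraries stood at 38.5, 37.9, 43.2 and 34.0 and mutant libraries at 65.8, 96.2, 64.7 and 61.3. Every mutant value was above the controls, and mutant library 2 was the highest by a wide margin. The mean was 38.4 ± 3.75 in controls and 72.0 ± 16.2 in mutants, 1.87 times as much. The log2 fold change was 0.87 with an SE of 0.14 (95% interval 0.56 to 1.18, limma adjusted p = 0.0133). Without mutant library 2 it was 0.72 (adjusted p = 0.0144). *Blcap*, which encodes a membrane protein that can induce apoptosis, stood at 34.1, 25.7, 26.4 and 24.5 in controls and at 29.9, 40.3, 24.9 and 33.7 in mutants, and the groups overlapped (log2 fold change 0.20, adjusted p = 0.689). The neuronal and Schwann cell markers in the table summed to 94.0 to 146 in controls and 96.9 to 116 in mutants.

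**Figure D2:**
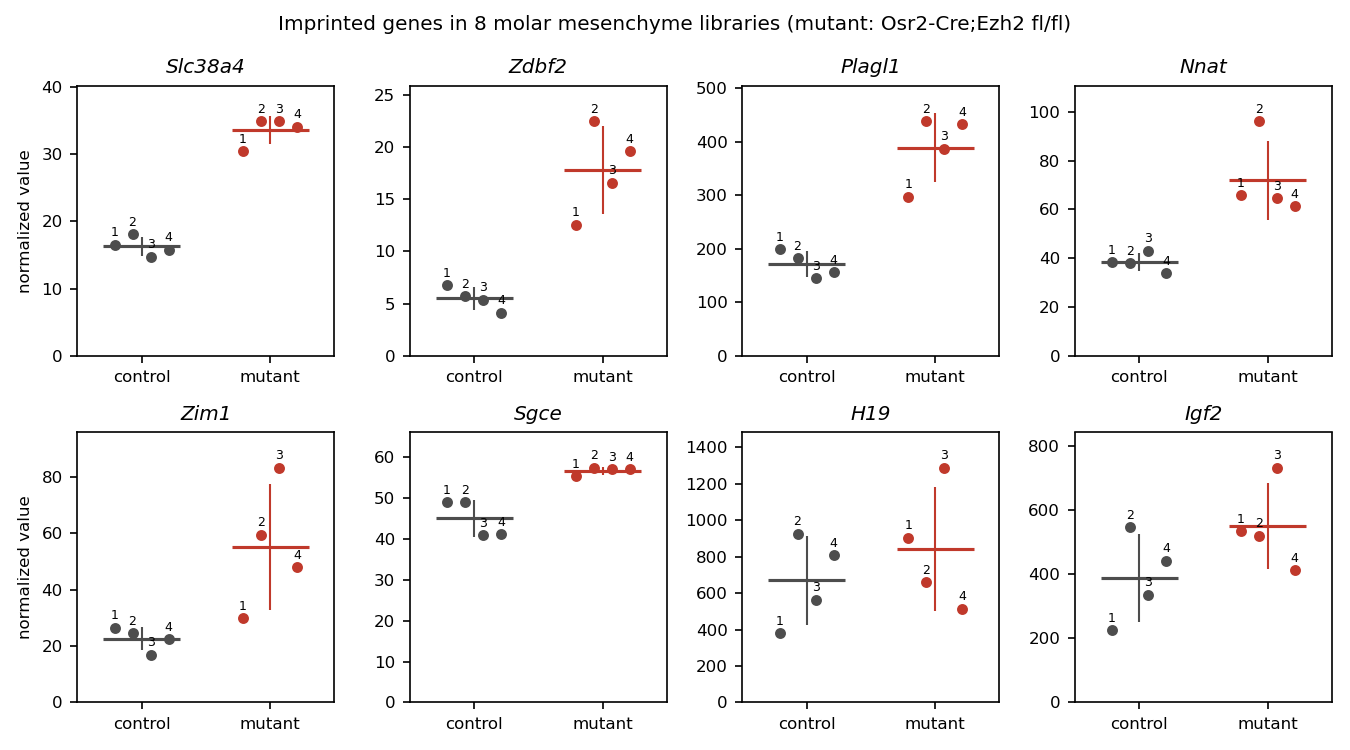
Normalized values of 8 imprinted genes in each library, numbered 1 to 4 within its group, with horizontal lines at the mean and vertical lines of 1 SD. *Slc38a4*, *Zdbf2*, *Plagl1*, *Nnat*, *Zim1* and *Sgce* do not overlap between the groups, while *H19* and *Igf2* overlap widely and follow each other from library to library.

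For each of these 4 genes the exact permutation test over the 70 arrangements of the libraries gave p = 0.0286, the smallest that 4 against 4 libraries can give. All 4 calls were kept when any 1 library was left out. With the replicate number as a block in the fit, 3 of the 4 were called and *Nnat* was not. That fit called 73 of all genes tested, against 308 without the block. With enamel gene level (mean log2 value of *Ambn*, *Amelx* and *Enam*) added to the fit all 4 stayed called, with log2 fold changes of 0.97 for *Slc38a4*, 1.37 for *Zdbf2*, 1.07 for *Plagl1* and 0.83 for *Nnat*. Without control libraries 3 and 4 and mutant library 3, which were rich in enamel transcripts, the log2 fold changes were 0.90 for *Slc38a4*, 1.37 for *Zdbf2*, 1.00 for *Plagl1* and 0.91 for *Nnat*, with adjusted p of 0.131, 0.2, 0.22 and 0.266. In that fit, with 2 controls against 3 mutants, 1 of 14435 genes passed. In 3 of the 4 called genes, and in 9 of the 11 genes that were higher at an unadjusted p under 0.05, mutant library 1 was the lowest of the mutants. It was the lowest mutant in 17 of the 44 imprinted genes and in 25.8% of all genes tested. *Xist*, the RNA of the inactive X chromosome, was near 0 in that library (0.414) and in control library 2 (0.373), the Y-linked gene *Ddx3y* was near 0 in mutant libraries 2 and 3 (0.0455 and 0.0424), and control libraries 1, 3 and 4 and mutant library 4 held both transcripts. The sex make-up of the libraries thus differed between the groups, and its part in these results was not tested beyond the following fit. With *Xist* as a covariate the same 4 genes were called.

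**Figure D3:**
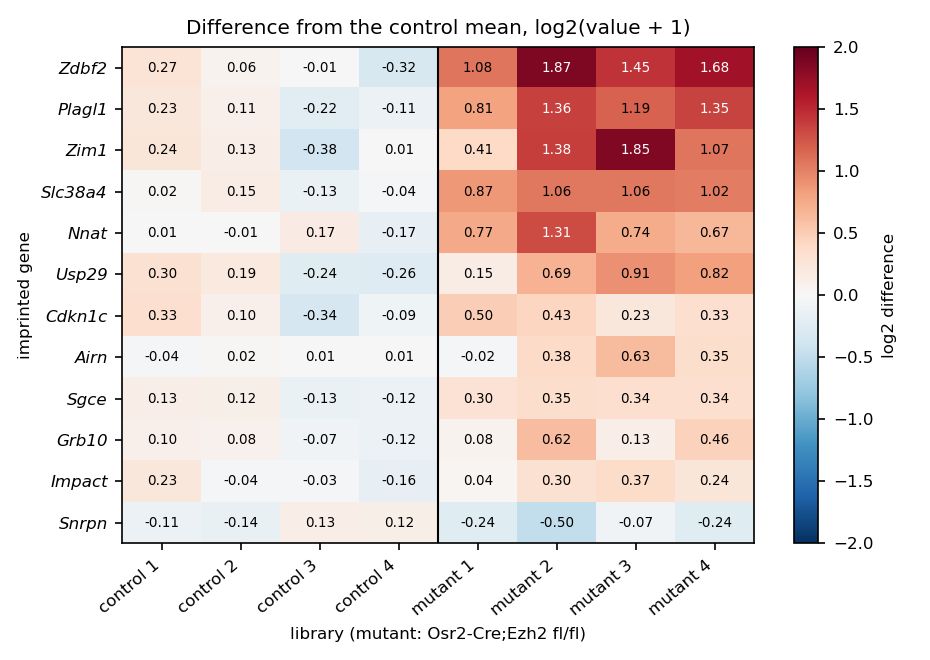
Difference of each library from the control mean on the log2(value + 1) scale for the 12 imprinted genes with an unadjusted p under 0.05, from blue (lower) to red (higher). The differences of mutant library 1 are 0.15 for *Usp29*, 0.41 for *Zim1* and -0.02 for *Airn*, and the other 3 mutant libraries are higher for each of these genes.

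The locus of *Peg3* on chromosome 7 holds 3 of the genes. *Peg3* itself, a paternally expressed zinc finger gene of growth and maternal behaviour, spans chr7:6703892-6730431 on the minus strand. Next to it on the same strand lies *Zim1*, at chr7:6671269-6696450, which is expressed from the maternal copy. *Usp29*, which encodes a ubiquitin protease, starts beside *Peg3* and is transcribed away from it. *Zim1* stood at 26.5, 24.6, 16.9 and 22.5 in controls and at 29.9, 59.5, 83.2 and 47.9 in mutants. The groups did not overlap, though mutant library 1 was only just above the highest control. The ratio of means was 2.44, from 22.6 ± 4.15 to 55.1 ± 22.3, and the log2 fold change of 1.18 (SE 0.27) did not pass the adjusted test (limma adjusted p = 0.0672, exact permutation p = 0.0286). Without mutant library 1 it was 1.43 (adjusted p = 0.0135), and it was 0.95 (adjusted p = 0.107) without mutant library 3 and 0.76 (adjusted p = 0.608) without the 3 libraries rich in enamel transcripts. *Usp29* stood at 4.52, 4.12, 2.79 and 2.74 in controls and at 3.95, 6.203, 7.43 and 6.92 in mutants, where only mutant library 1 lay within the control range. Its log2 fold change was 0.64 with an SE of 0.20 (adjusted p = 0.158, and 0.81 with adjusted p = 0.0446 without mutant library 1). Without the 3 libraries rich in enamel transcripts it was 0.30 (adjusted p = 0.987). *Peg3* stood at 428, 324, 282 and 279.9 in controls and at 287, 648, 474 and 549 in mutants. Mutant library 1 again lay among the controls, and the log2 fold change of 0.53 (SE 0.24) had an adjusted p of 0.38. It was 0.33 (adjusted p = 0.987) without the 3 libraries rich in enamel transcripts. *Zim1* thus showed a larger difference than its better expressed neighbour, and their ratio is given further on.

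The *Igf2*-*H19* locus on chromosome 7 pairs *Igf2*, the fetal insulin-like growth factor expressed from the paternal copy, with the maternally expressed noncoding RNA *H19*. Per kilobase of exon, *H19* had the highest control level of all 49 genes (a mean signal of 272) and *Igf2* the fifth (67.6). *H19* values were 379.6, 927, 564 and 809.7 in controls and 905, 661, 1289 and 515 in mutants. *Igf2* values were 226, 545, 335 and 442 in controls and 534, 519.7, 731 and 412 in mutants. Both genes were lowest in control library 1 and highest in mutant library 3, and their groups overlapped. The log2 fold change was 0.33 for *H19* (95% interval -0.41 to 1.07, adjusted p = 0.799) and 0.55 for *Igf2* (95% interval -0.04 to 1.14, adjusted p = 0.436). With 1 library left out it ran from 0.081 to 0.53 for *H19* and from 0.31 to 0.74 for *Igf2*. With array weights it was -0.32 and 0.10, and with the ameloblast covariate 0.66 (adjusted p = 0.318) and 0.79 (adjusted p = 0.156). The spread within groups left an increase of 2-fold in either gene undecided.

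*Igf2r* encodes the receptor that removes IGF2 and is expressed from the maternal copy, opposite the noncoding RNA *Airn*, which is expressed from the paternal copy and overlaps it on the other strand. *Igf2r* stood at 85.2, 98.2, 85.9 and 91.2 in controls and at 73.6, 114, 85.8 and 94.9 in mutants, with wide overlap. Its log2 fold change was 0.01 (95% interval -0.26 to 0.29). With median-of-ratios scaling, which moved the median of all genes by -0.029, it was -0.018. *Airn* stood at 8.91, 9.35, 9.28 and 9.31 in controls and at 9.08, 12.3, 14.9 and 12.0 in mutants. Here 3 mutant libraries lay above the controls and library 1 among them, with a log2 fold change of 0.33 (SE 0.13, adjusted p = 0.29). *Grb10*, an adaptor that dampens insulin and IGF signalling, stood at 319.5, 315, 283 and 274 in controls and at 313, 456, 326 and 410.4 in mutants. It too had 3 mutant libraries above every control, with a log2 fold change of 0.32 (SE 0.13, adjusted p = 0.298). Under the other settings tried, the log2 fold change of *Grb10* ran from 0.21 to 0.46, and from 0.22 to 0.40 with 1 library left out.

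The *Kcnq1* domain on chromosome 7 holds growth-restraining genes of the maternal copy around the noncoding RNA *Kcnq1ot1* of the paternal copy. *Cdkn1c* (p57), an inhibitor of cyclin-dependent kinases with a control level of 206 per kilobase of exon that was second only to *H19*, stood at 520.3, 443, 328 and 389 in controls and at 585, 558, 487 and 521 in mutants. A single control library reached into the mutant range. The mean was 420.0 ± 81.9 in controls and 538 ± 43.0 in mutants, with a log2 fold change of 0.37 (95% interval 0.07 to 0.68, limma adjusted p = 0.254, exact permutation p = 0.0571). It was 0.23 (adjusted p = 0.381) with the ameloblast covariate and 0.21 (adjusted p = 0.916) without the 3 libraries rich in enamel transcripts, and in neither fit was the unadjusted p under 0.05. *Kcnq1ot1* stood at 29.9, 19.98, 20.6 and 13.95 in controls and at 16.3, 32.7, 28.7 and 26.0 in mutants, which overlapped (log2 fold change 0.29, 95% interval -0.26 to 0.84, and 0.12 without control library 4 to 0.49 without mutant library 1 when single libraries were left out). With the ameloblast covariate the log2 fold change of *Kcnq1ot1* was 0.13. Without the 3 libraries rich in enamel transcripts it turned sign, to -0.021. *Kcnq1ot1* overlaps *Kcnq1* on the opposite strand. The other tested genes of the domain had smaller log2 fold changes. The tetraspanin gene *Cd81* had a log2 fold change of -0.11, *Tssc4* 0.06, the transporter gene *Slc22a18* 0.12 and the histone chaperone gene *Nap1l4* -0.02, and none had an adjusted p under 0.05.

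*Ascl2* and *Phlda2*, which encode a trophoblast transcription factor and a restrainer of placental growth, also belong to the *Kcnq1* domain and were too low to be tested. *Ascl2* had 5, 6, 3 and 5 estimated reads in controls and 16, 11, 17 and 15 in mutants. Its groups did not overlap, with a ratio of mean values of 2.69, or 3.061 after 1 read was taken off each value (exact permutation p = 0.0286, and an adjusted p of 0.103 in the fit without a filter). *Phlda2* had 4, 13, 11 and 11 estimated reads in controls and 21, 10, 16 and 22 in mutants (adjusted p = 0.48 without a filter). Such numbers leave a large counting error, and for both genes a level near the detection limit is all that is shown. The remaining genes that were not tested were *Ddc* beside *Grb10* (21 to 56 and 42 to 81 estimated reads, adjusted p = 0.192 without a filter), the organic cation transporter gene *Slc22a3* beside *Igf2r* (2 to 13 and 5 to 14) and *Magel2* (9 to 17 and 7 to 24). None of these 5 genes was called in the fit without a filter, where 1.22% of 20926 genes were called higher.

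On chromosome 6, *Sgce* encodes the membrane protein epsilon-sarcoglycan, is expressed from the paternal copy and lies back to back with *Peg10*, at chr6:4674350-4747207. *Sgce* stood at 49.04, 48.99, 40.9 and 41.2 in controls and at 55.3, 57.4, 57.1 and 57.1 in mutants. The groups did not overlap, and the mutant libraries were close together. The mean was 45.0 ± 4.59 in controls and 56.7 ± 0.979 in mutants, with a log2 fold change of 0.33 (SE 0.08, limma adjusted p = 0.0751, exact permutation p = 0.0286). Without the 3 libraries rich in enamel transcripts it was 0.20 (adjusted p = 0.617). *Peg10*, a retrotransposon-derived gene needed for the placenta, stood at 31.3, 26.7, 25.1 and 22.6 in controls and at 19.1, 37.1, 24.4 and 28.5 in mutants. The mutants spread to both sides of the controls, and the log2 fold change of 0.02 (95% interval -0.39 to 0.42) was -0.014 under median-of-ratios scaling and -0.0001 under quantile normalization, which moved the median of all genes by -0.029 and -0.016. *Ppp1r9a* (log2 fold change 0.19) and *Asb4* (-0.00) of the same locus did not pass the test.

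*Mest*, a paternally expressed hydrolase gene used as a marker of fetal mesoderm growth, and *Copg2*, a coat protein gene of vesicle transport, overlap end to end on chromosome 6 on opposite strands. *Mest* stood at 265, 269, 238 and 256 in controls and at 244, 337, 284 and 297 in mutants, which overlapped (log2 fold change 0.17, 95% interval -0.05 to 0.39). It was 0.093 without mutant library 2 and 0.25 without mutant library 1. *Copg2* stood at 68.4, 72.6, 72.9 and 74.4 in controls and at 67.6, 64.5, 65.2 and 66.3 in mutants. Its groups did not overlap, but the difference was small, with a log2 fold change of -0.13 (95% interval -0.25 to 0.00, limma adjusted p = 0.381, exact permutation p = 0.0286).

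In the *Ndn*-*Snrpn* domain on chromosome 7, the mouse counterpart of the Prader-Willi region, *Snrpn* encodes a protein of the splicing machinery. *Snrpn* stood at 16.5, 16.1, 19.7 and 19.6 in controls and at 15.05, 12.4, 17.0 and 14.96 in mutants. It was the only gene of the 44 tested that was lower at an unadjusted p under 0.05, joined by *Copg2* in the fit without a filter, with a log2 fold change of -0.26 (SE 0.11, adjusted p = 0.352). *Ndn*, which encodes the growth suppressor necdin, stood at 49.03, 45.5, 43.6 and 42.9 in controls and at 51.8, 58.7, 42.0 and 59.4 in mutants. All mutants but library 3 were above the controls, and the log2 fold change of 0.21 had an adjusted p of 0.482. Under the other settings tried, that of *Ndn* ran from 0.089 to 0.38. The ring finger gene *Mkrn3* (0.04), *Peg12* (0.19) and *Ube3a* (-0.08), a ubiquitin ligase gene that is imprinted in neurons, did not pass the test.

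*Gnas* encodes the stimulatory G protein alpha subunit and had the highest mean of all 49 genes before division by length. It stood at 1142, 1123, 1121 and 1286 in controls and at 1127, 1144, 1055 and 1112 in mutants, with a log2 fold change of -0.07 (95% interval -0.26 to 0.12). *Impact*, a regulator of translation under amino acid shortage, stood at 35.4, 29.0, 29.3 and 26.7 in controls and at 30.8, 37.1, 38.9 and 35.6 in mutants. Its log2 fold change was 0.24 (SE 0.10, adjusted p = 0.365), with control library 1 inside the mutant range. Under the other settings tried, the log2 fold change of *Impact* ran from 0.10 to 0.32, and from 0.18 to 0.32 with 1 library left out. The remaining single genes and pairs, some of them retrogenes inside a host gene, did not pass either test: *Mcts2* -0.03 and its host *H13* -0.01, *Nap1l5* -0.22 (95% interval -0.68 to 0.24), *Inpp5f* -0.01, *Rasgrf1* 0.08, *Peg13* 0.07 and *Trappc9* -0.09, *Qpct* 0.10 (95% interval -0.45 to 0.65), *Commd1* 0.10 and *Zrsr1* 0.09 on the log2 fold change scale. Of the 44 genes, 24 had a 95% interval that lay wholly within 0.5 of 0, among them *Inpp5f* (-0.14 to 0.12).

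**Figure D4:**
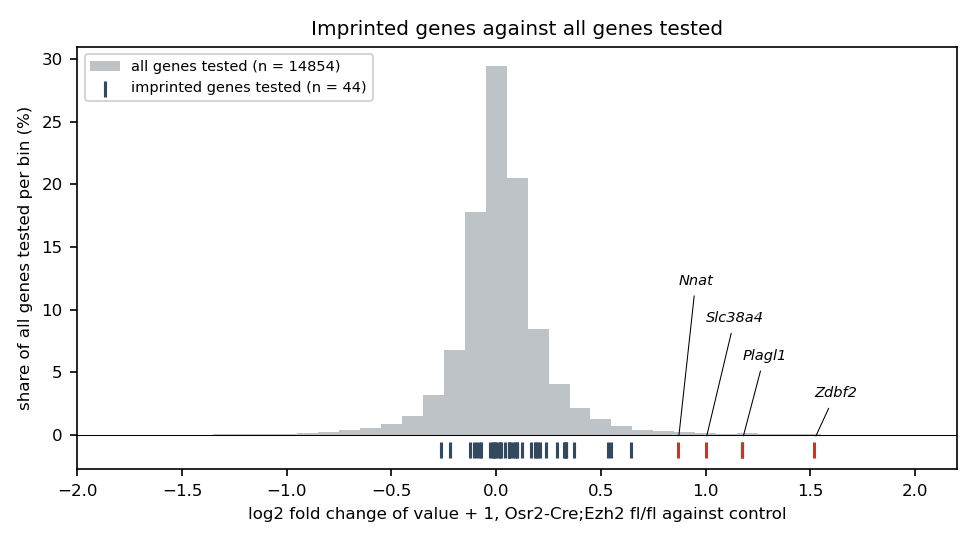
Share of all 14854 genes tested in each bin of 0.1 of log2 fold change (grey, in percent, 7 genes lie beyond the axis), with a tick below the axis for each of the 44 imprinted genes, red where the adjusted p was under 0.05. Most ticks lie in the body of the distribution, and the 4 named genes lie at 0.87 to 1.52, with the tick of *Zim1* at 1.18 beside that of *Plagl1*.

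By parental copy, 25 paternally and 18 maternally expressed genes were tested, but imprinting is known only in placenta, brain, some other tissues or part of the transcripts for 3 of the former (*Inpp5f*, *Sfmbt2* and *Gab1*) and 11 of the latter (*Cd81*, *Tssc4*, *Nap1l4*, *Copg2*, *Ppp1r9a*, *Blcap*, *Ube3a*, *H13*, *Trappc9*, *Qpct* and *Commd1*). Of the 22 paternally expressed genes without such a limit, 4 were called higher (1.56% of all genes tested), and at an unadjusted p under 0.05 8 were higher and 1 lower, with a median log2 fold change of 0.22. Of the 7 maternally expressed genes without such a limit, none was called, and 3 (*Zim1*, *Cdkn1c* and *Grb10*) were higher at an unadjusted p under 0.05, with a median of 0.32. Over all genes tested 8.27% were higher and 4.87% lower in that sense. None of the 14 genes with a limit had an unadjusted p under 0.05, and no difference between these classes was tested. Of the 22 genes tested that overlap another gene of the table, 1 was called, and of the 22 that overlap none, 3, where 1.56% of all genes tested were called higher. Level did not set the called genes apart as a group: per kilobase of exon, control means were 21.9 for *Plagl1* and 21.003 for *Nnat*, but 3.82 for *Slc38a4* and 0.435 for *Zdbf2*, which was 40th of the 49.

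The ratio of both genes of a locus within a library does not depend on the scaling between libraries, and 14 such ratios were compared. No pair passed at an adjusted p under 0.05 over the 14 (exact permutation, two-sided), and 3 pairs did not overlap between groups, each with p = 0.0286 and adjusted p = 0.133. The log2 ratio of *Nnat* to *Blcap* was 0.18, 0.56, 0.71 and 0.47 in controls and 1.14, 1.26, 1.38 and 0.87 in mutants, a mean difference of 0.68. The ratio of *Peg3* to *Zim1* was 4.01, 3.72, 4.06 and 3.64 in controls and 3.26, 3.45, 2.51 and 3.52 in mutants, a difference of -0.67. Mutant *Peg3* was thus lower relative to *Zim1* in every mutant library, library 1 included. The ratio of *Peg13* to its host *Trappc9* differed by 0.16, with controls at -0.12 to -0.05 and mutants at 0.05 to 0.14.

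The ratio of *Igf2r* to *Airn* was 3.26, 3.39, 3.21 and 3.29 in controls and 3.02, 3.21, 2.53 and 2.99 in mutants, a difference of -0.35 (exact permutation p = 0.0571, adjusted p = 0.16). The ratio of *H19* to *Igf2* was 0.75, 0.77, 0.75 and 0.87 in controls and 0.76, 0.35, 0.82 and 0.32 in mutants, a difference of -0.22 (exact permutation p = 0.257, adjusted p = 0.4). Over the 8 libraries the SD on the log2 scale was 0.560 for *H19*, 0.515 for *Igf2* and 0.213 for their ratio, so the spread of either gene was larger than that of the ratio. Mutant libraries 2 and 4 had less *H19* for their *Igf2* than the other 6 libraries. The ratio of *Mest* to *Copg2* differed by 0.30 (exact permutation p = 0.0857, adjusted p = 0.2) and that of *Snrpn* to *Ube3a* by -0.20 (exact permutation p = 0.0571, adjusted p = 0.16).

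**Figure D5:**
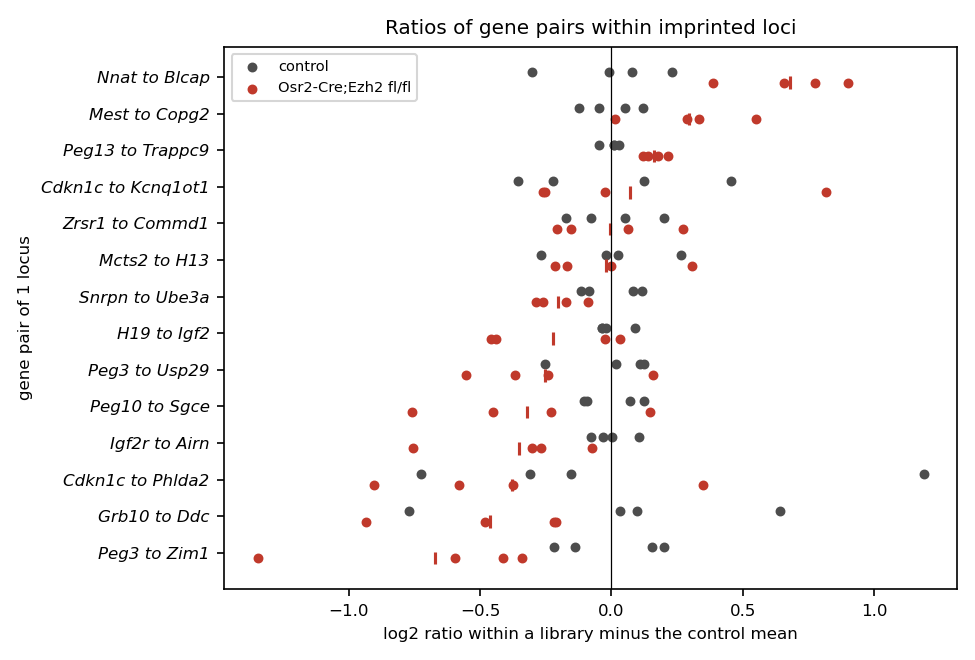
Log2 ratio of gene pairs within 1 imprinted locus in each library, minus the control mean of that pair, for 4 control (grey) and 4 *Osr2-Cre;Ezh2* fl/fl (red) libraries. Points of *Nnat* to *Blcap* and *Peg13* to *Trappc9* lie higher and those of *Peg3* to *Zim1* lower in all 4 mutant libraries, and vertical bars are the mutant means.

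Genes that act around these loci were counted from lists set beside the imprinted genes. Of 21 tested genes of imprint maintenance and chromatin, none passed the adjusted test in limma, and at an unadjusted p under 0.05 *Zfp57* was higher (log2 fold change 0.34, limma adjusted p = 0.271) and *Ezh2* lower. The median of that list was -0.05. Of 41 neighbours of the loci that are not among the 49 genes, 32 were in the table and 25 were tested, with a median of 0.07. The cation channel gene *Trpm5*, which overlaps *Tssc4* on the opposite strand in the *Kcnq1* domain, rose as the only one of them. It stood at 1.69, 2.88, 1.68 and 2.54 in controls and at 5.05, 6.93, 7.12 and 7.17 in mutants (log2 fold change 1.25, SE 0.16, limma adjusted p = 0.00543). That is 1 of 25, where 1.56% of all genes tested were called higher. Without the 3 libraries rich in enamel transcripts its log2 fold change was 1.18 (limma adjusted p = 0.216). At an unadjusted p under 0.05, 4 neighbours were higher and 1 lower, where 8.27% and 4.87% of all genes were.

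Of 14 genes of the IGF pathway, which carries the signal of *Igf2*, the RNA-binding protein gene *Igf2bp1*, whose product binds *Igf2* RNA, rose. It stood at 7.14, 6.42, 4.02 and 5.20 in controls and at 10.9, 14.2, 13.6 and 13.1 in mutants, with no overlap (log2 fold change 1.07, SE 0.15, limma adjusted p = 0.00895). Without the 3 libraries rich in enamel transcripts it was 0.81 (limma adjusted p = 0.2). No other gene of the list passed, where 1.56% of all genes tested were called higher. At an unadjusted p under 0.05, against 8.27% of all genes higher and 4.87% lower, 3 genes were higher, with *Igf2bp3* at 0.21 and the receptor substrate *Irs1* at 0.76 beside *Igf2bp1*, and 2 were lower, the binding protein *Igfbp5* at -0.44 and *Irs2* at -0.25. The receptor *Igf1r* had a log2 fold change of 0.03, and the median of the list was -0.01.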

How the data were processed

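RNA from the molar mesenchyme of PN day 3 mice was measured in 8 libraries, 4 per group, with groups taken from the genotype in the labels. The study's methods state single-end reads, trimming, alignment to mm10 and normalization as RPKM, while the submitters' processing notes name CASAVA 1.8.2, STAR 2.5.3a and Partek. The values the authors deposited are a normalized signal per gene: they share 1 upper quartile, hold no gene-length factor and are never 0. The value of 1 read was taken as the smallest value of each library. Values behave as reads + 1 times that value, so estimated reads are the value divided by it, less 1, and ratios of values understate those of reads in genes with few reads. Too few low values came out as whole reads (within 0.02) for a count test. Counting strand is not given in the sources used here. Depth limits the precision of genes with few reads only.

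Values were tested as log2(value + 1) with limma 3.58.1 (R 4.3.3, trended empirical Bayes) on all 8 libraries, for genes that reached a value of 1 in 4 or more libraries, with Benjamini-Hochberg adjustment over all 14854 genes at 0.05. Single values and pair ratios used a two-sided exact permutation test over 70 arrangements. The test was checked on simulated data. The methods give n = 4 per group without saying whether each library is 1 animal, so p-values measure the spread between these libraries, which may be technical. Control libraries 1, 3 and 4 and mutant library 4 held both *Xist* and *Ddx3y*. These libraries may be pools of animals of both sexes, which was not tested. Fold changes on this scale understate those of low genes.

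The imprinted genes, the gene lists and the pairs were chosen with earlier results of these data known. All 49 genes are accounted for, and values in every library are given for those with an unadjusted p under 0.05, those whose groups do not overlap and the lead gene of each main locus. Gene positions are from GENCODE M21 (GRCm38), where 43 of 49 genes had the start in the table, and promoter windows are from RefSeq. Alternatives changed the pseudocount, filter, scaling, variance model, covariates, replicate block and libraries left out. Fits without the 3 libraries with the most *Amelx*, and ratios after 1 read was subtracted, were added after the data were seen.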

Additional observations from a re-analysis of the deposited data

Results flagged for a closer look

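In 4 of 48 groups of 4 libraries examined, 1 library stood apart from the other 3 by more than 0.829 of the range of its group, where chance gives about 1 in 20 groups, or 2.4. *Nnat* was at 96.2 in mutant library 2, against 61.3 to 65.8 in the other mutants. *Sgce* was at 55.3 in mutant library 1, against 57.1 to 57.4. Control library 1 had *Airn* at 8.91, where the other controls had 9.28 to 9.35. *Gnas* was at 1286 in control library 4, against 1121 to 1142. For *Sgce* and *Airn* the other 3 libraries lay close together, so a small gap was enough.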

How the results depend on the processing

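The 4 calls were kept under both other pseudocounts, no filter or a filter at 10, median-of-ratios and quantile scaling, no variance trend, and covariates for ameloblast markers and *Xist*, and leaving out 1 library gave 4 to 6 higher and 0 lower calls. Array weights gave 16 higher and 3 lower calls (18 and 5 unadjusted) in a fit that called 4040 of 14854 genes. Without the 3 libraries with the most *Amelx* there were 0 calls in limma (7 higher and 0 lower unadjusted), with fewer libraries in the fit. The unadjusted count of lower genes was 2 with a pseudocount of 5, without a filter and with median-of-ratios scaling, and 0 with the ameloblast covariate. Leaving out 1 library gave unadjusted counts of 7 to 12 higher and 0 to 2 lower.

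The study's methods mention 3 pairs of samples for sequencing, beside n = 4 per group, and do not say which libraries were paired. Deviations from the group means of same-numbered libraries had correlations of -0.34, -0.08, 0.22 and -0.43. Other differences between libraries also enter these correlations, so they cannot decide whether the libraries were paired. With the replicate block 3 genes were called, in a fit that called 73 of 14854 genes against 308 without it, and *Nnat* kept its log2 fold change of 0.87 with an adjusted p of 0.0523. For 22 genes followed under 19 or 20 alternatives each (*Airn* and *Usp29* do not pass the filter at 10), 402 of 438 values kept their direction and their side of the threshold, 5 lost and 14 gained a call, and 17 turned sign. *H19* was -0.32 with array weights and *Kcnq1ot1* -0.021 without the *Amelx*-rich libraries. Median-of-ratios and quantile scaling moved the median of all genes by -0.029 and -0.016. *Peg10* was -0.014 with median-of-ratios scaling, -0.0001 with quantile normalization, -0.12 and -0.0068 with the ameloblast and *Xist* covariates, -0.080 without the *Amelx*-rich libraries and -0.14 to 0.17 with 1 library left out. *Igf2r* was -0.018 with median-of-ratios scaling, -0.019 with the ameloblast covariate and -0.093 to 0.114 with 1 library left out. With 1 library left out, differences in log2 ratio that turned sign ran from -0.18 to 0.22 for *Cdkn1c* to *Kcnq1ot1*, -0.62 to 0.019 for *Cdkn1c* to *Phlda2*, -0.13 to 0.068 for *Mcts2* to *H13* and -0.10 to 0.061 for *Zrsr1* to *Commd1*. The cause of these changes was not tested.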
